A study of Mus musculus with 120 samples.

Results

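RNA levels in the E7.5 AM region of the mouse gastrula were compared with those in the anterior region A of the same stage. The comparison covered 13229 of the 23154 genes in the embryo count table, namely those with 10 or more counts in at least 2 of the 4 libraries, and 13150 of them also passed the filter of the test. The series dissected ICR mouse gastrulae of the stages E6.5, E7.0 and E7.5 into an extra-embryonic part, ExE, and embryonic sub-regions, and profiled transcription, DNA methylation and chromatin. Each region of a stage gave 2 RNA libraries. At E7.5 the sub-regions are named A, AM and P, and the labels do not spell AM out. All 4 libraries compared here came from untreated ICR embryos at 7.5 days post coitum (E7.5), with no allele or agent. The labels do not say how many embryos went into a library, nor that the 2 libraries of a region came from separate litters, and the p-values therefore cover only the variation from library to library.

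At this stage the embryo has formed its germ layers by gastrulation, in which epiblast cells pass through the primitive streak and become mesoderm and definitive endoderm. Definitive endoderm, marked by the transcription factors SOX17 and FOXA2, spreads along the outer surface and mixes with the older visceral endoderm, an absorptive epithelium that makes plasma proteins. The anterior epiblast that stays behind becomes neural and surface ectoderm.

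The 4 libraries held between 9366714 and 16297084 counts. Replicate 1 of A and of AM carried the Y-linked transcript Ddx3y at 59.5 and 67.5 CPM (the count relative to the scaled library size) and replicate 2 of both carried it at 0, so this transcript divided the replicates and not the regions. Markers of the other cell types showed what each region held. The 5 visceral endoderm markers summed to 10.9 and 488 CPM in the 2 libraries of A and to 1095 and 6162 in those of AM. The 4 definitive endoderm markers (Sox17, Foxa2, Cpn1, Trh) summed to 13.2 and 230 CPM in A and to 926 and 1165 in AM. Trh made up most of each sum, at 9.22 and 211 CPM in A and at 764 and 1034 in AM. In edgeR's quasi-likelihood test Trh did not pass (adjusted p = 0.489). The 3 epiblast markers (Pou5f1, Utf1, Fgf5) went the other way, with 240.3 and 583 CPM in A against 42.1 and 108 in AM. The ectoderm markers of ExE were near 0 in both regions: Elf5 had no count in either, and the 3 markers summed to at most 0.912 CPM. The 3 blood markers summed to 3.39 and 1.88 CPM in A and to 11.6 and 8.20 in AM, nearly all of it from Gata1, and Hbb-bh1 had no count in either region. The part of these other cells in the results was not tested. In tissue libraries such as these, fewer cells of a type and less RNA per cell cannot be told apart.

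In the test, 165 genes rose in AM (1.25% of the 13150 tested) and 59 fell (0.449%) at a Benjamini-Hochberg adjusted p under 0.05 in edgeR's quasi-likelihood test. The counts of calls in gene lists below stand beside these shares. For lists drawn up after values were seen, counts and medians partly reflect the choice of members and are no test of a theme. The rises had a median of 2.95 on the log2 scale and the falls a median of -3.20, also with the 1 rise and 2 falls of genes at 0 counts in a region taken at their bound. Among genes with counts in both regions the rises spanned 1.17 to 6.99 and the falls -7.01 to -1.24. Over all genes tested the median log2 fold change was 0.0075. Counting all 14403 genes of the table that passed the filter, 166 rose (1.15%) and 60 fell (0.417%). In all 224 called genes the 2 AM libraries lay on one side of the 2 A libraries, which held for 22.2% of the genes tested in the higher and 20.4% in the lower direction. Of the rises, 26 belonged to genes that met the count minimum through the AM libraries alone, and 9 of the falls to genes that met it through A alone. The calls rest on a spread estimated over all 18 embryo libraries: a fit of the 4 libraries alone called 1 higher and 2 lower. Without A replicate 1 the test called 19 higher and 17 lower, without AM replicate 1 it called 103 and 12, without AM replicate 2 it called 72 and 17, and without A replicate 2 it called 167 and 37. A further 2 genes were called outside the count minimum and are named here after their values were seen: Prap1 had no count in A and was at least 16.6-fold higher in AM, taking 3 counts over the A libraries as the floor, and Tfap2c had a log2 fold change of -3.35.

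**Figure D1:**
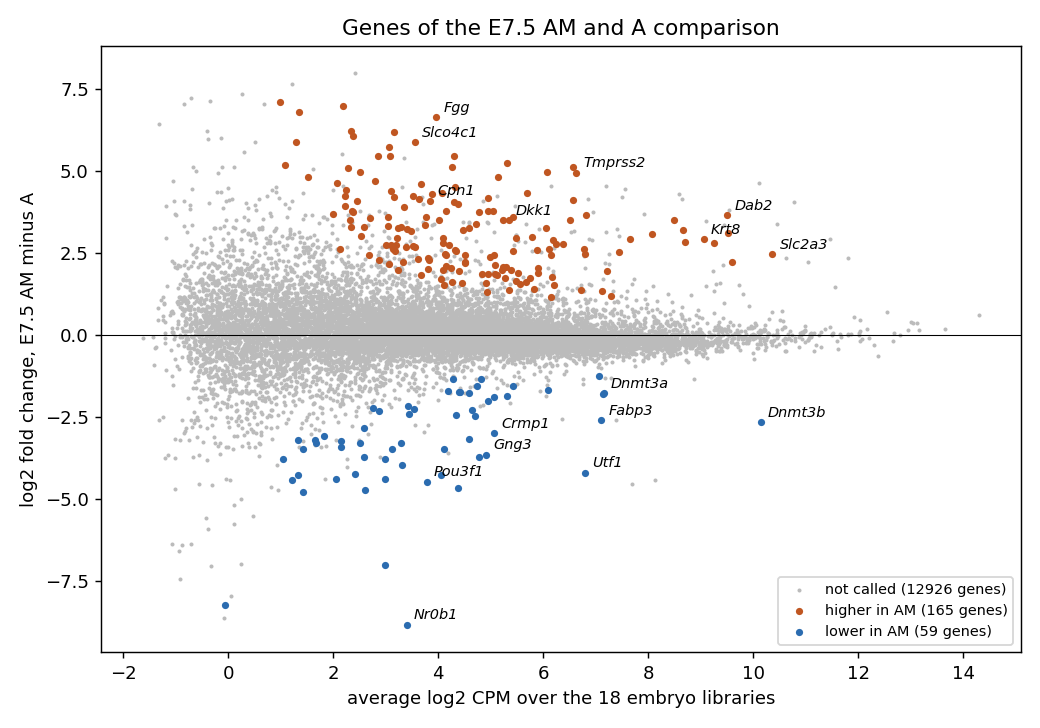
Log2 fold change (E7.5 AM minus A) of each of the 13150 genes tested, plotted against its average log2 CPM over the 18 embryo libraries; orange points are the 165 genes that rose in AM and blue points the 59 that fell. Fgg and Slco4c1 are among the largest rises, and Nr0b1, which had no count in AM, is plotted at its fitted value, which is no measure of the size of its fall.

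Promoters of 3 genes are printed because the endoderm and epiblast results below turn on them: Cpn1 for definitive endoderm, Fgb for plasma proteins, and Dnmt3b for the epiblast. Each window is the 250 bases before the start listed for the gene in RefSeq on build GRCm38.p6, read 5′ to 3′ on the strand of the gene. The outermost RefSeq boundary lies 31 bases inside the window for Cpn1 and 38 for Dnmt3b, and those bases are not printed. Capitals mark a match to the forkhead letters TGTTTAC on either strand.
Cpn1, chr19:43986552-43986770, minus strand: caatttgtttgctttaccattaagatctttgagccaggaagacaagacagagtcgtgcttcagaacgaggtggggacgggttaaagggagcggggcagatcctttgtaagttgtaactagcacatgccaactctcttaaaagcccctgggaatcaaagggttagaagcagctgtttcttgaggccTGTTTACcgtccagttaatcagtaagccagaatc
Fgb, chr3:83049864-83050113, minus strand: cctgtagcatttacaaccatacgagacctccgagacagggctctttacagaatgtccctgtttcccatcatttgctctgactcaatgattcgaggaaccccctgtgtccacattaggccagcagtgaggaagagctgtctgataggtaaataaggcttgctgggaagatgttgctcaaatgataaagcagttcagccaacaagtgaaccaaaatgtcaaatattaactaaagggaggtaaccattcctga
Dnmt3b, chr2:153649199-153649410, plus strand: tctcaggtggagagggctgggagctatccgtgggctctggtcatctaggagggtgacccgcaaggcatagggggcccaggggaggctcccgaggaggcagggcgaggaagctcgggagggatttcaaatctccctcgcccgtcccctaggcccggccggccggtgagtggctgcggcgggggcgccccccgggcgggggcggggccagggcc
The Cpn1 promoter held the forkhead letters 65 bases before the listed start. The Fgb and Dnmt3b promoters held none and are shown for their contrast in CpG content. Across genes, in the full windows, the forkhead letters were in 6 of 137 promoters of genes that rose (4.38%) and 2 of 50 of those that fell (4.0%). They were in 2.09% of the 10493 promoters found for genes tested and in 3.09% of all 27025 promoters. Promoters with under 5 CpG dinucleotides, like that of Fgb with 3, made up 43 of 137 for the genes that rose (31.4%), 7 of 50 for those that fell (14%), 10.6% for the genes tested and 44.5% of all promoters; the full Dnmt3b window held 21, with 16 in the bases printed. These shares are descriptions of letters in these windows and were not tested.

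Definitive endoderm genes were higher in AM. Of 14 tested, 6 rose, against 1.25% of all genes tested, and the list's median log2 fold change was 3.13. The forkhead factors FOXA1, FOXA2 and FOXA3, which open chromatin at gut and liver genes, all rose. Foxa2 was at 2.23 and 6.66 CPM in the A libraries and at 49.5 and 18.5 in AM, a log2 fold change of 2.95 ± 0.56 (SE, n = 2 and 2 libraries, adjusted p = 0.0106). Foxa1 went from 0.152 and 1.45 CPM in A to 23.9 and 9.09 in AM, with a log2 fold change of 4.44 (adjusted p = 0.0274). Foxa3 was at 1.27 and 3.16 CPM in A and at 11.5 and 10.1 in AM (adjusted p = 0.0423). For each of the 3 both AM libraries exceeded both A libraries, and for Foxa1 and Foxa2 replicate 1 of AM was the higher.

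The smallest p-value of the list belonged to Cpn1, a carboxypeptidase secreted into plasma. It had 0.911 and 2.99 CPM in A and 36.2 and 29.1 in AM, a log2 fold change of 4.10 ± 0.57 (SE, n = 2 and 2 libraries, adjusted p = 0.00116). Krt19, an intermediate filament keratin of simple epithelia, was at 2.18 and 6.66 CPM in A and at 91.2 and 28.1 in AM (adjusted p = 0.0106). Tmprss2, a membrane serine protease, was at 0.203 and 14.6 CPM in A and at 251 and 198 in AM (adjusted p = 0.0455), so its A libraries differed widely from each other. Cpn1 kept its call with any 1 of the 4 libraries left out. Without A replicate 1 the list had 2 calls, without AM replicate 1 it had 1, and the Tmprss2 call was also lost without AM replicate 2, as was that of Foxa3. The call of Tmprss2 was lost with DESeq2 size factors (adjusted p = 0.0519) and that of Foxa3 with scaling to total counts (adjusted p = 0.0708), both in edgeR.

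Several defining genes of the layer did not pass in edgeR. Sox17 was at 0.861 and 8.63 CPM in A and at 76.3 and 82.8 in AM (log2 fold change 4.11 ± 1.14 SE, n = 2 and 2 libraries, adjusted p = 0.111). Hhex, a homeobox factor of anterior endoderm, was at 2.48 and 3.84 CPM in A and at 10.4 and 12.1 in AM (adjusted p = 0.116). Prdm1, a transcriptional repressor, was at 2.08 and 1.11 CPM in A and at 15.5 and 8.40 in AM (adjusted p = 0.262). DESeq2 called 8 of the 14 genes higher, Sox17 and Hhex among them but not Prdm1. In all 14 genes of the list, called or not, both AM libraries exceeded both A libraries. In the P region Sox17 had 16.3 and 20.7 CPM and Cpn1 had 13.6 and 23.1. The comparison of AM with P, which shares the AM libraries, gave log2 fold changes of 2.10 for Sox17 (adjusted p = 0.814) and 0.83 for Cpn1 (adjusted p = 0.878), neither of which passed. ExE, where visceral endoderm markers were highest, had Tmprss2 at 129 and 114 CPM and Sox17 at 19.6 and 13.5. It had Cpn1 at 12.4 and 14.8 CPM and Foxa2 at 11.4 and 12.7, but Trh at only 0.954 and 2.67. Genes of this list are thus not particular to definitive endoderm. The part of visceral endoderm in their rises was not tested.

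**Figure D2:**
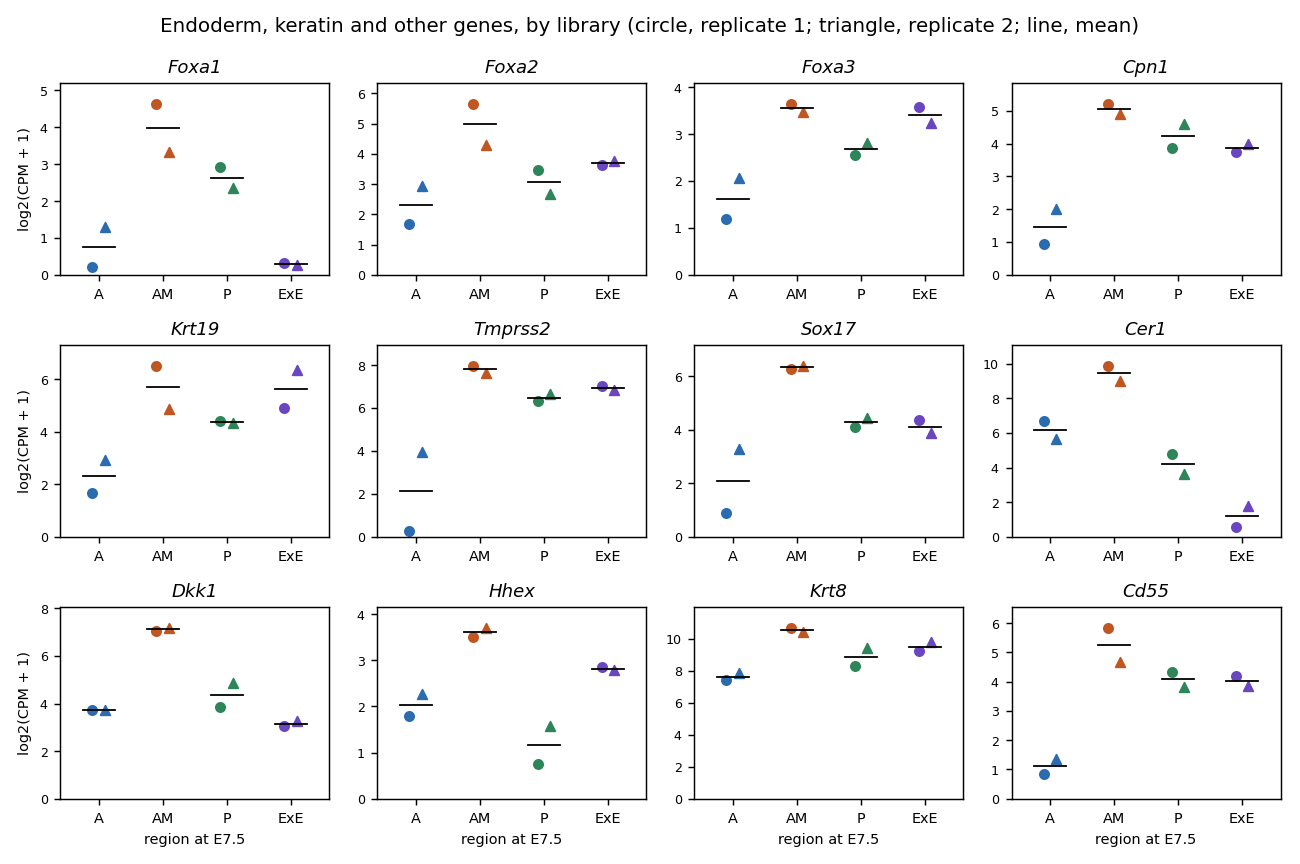
Level of 12 genes, as log2(CPM + 1), in the 2 libraries of each E7.5 region; circles are replicate 1, triangles replicate 2 and lines the mean. In each panel both AM libraries lie above both A libraries. For genes including Sox17, Foxa2, Cpn1, Tmprss2, Cd55, Cer1, Dkk1 and Krt8, AM is also above P and ExE.

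Among secreted antagonists that pattern the anterior of the embryo, Dkk1 rose in AM and Cer1 did not pass. Dkk1, which blocks Wnt co-receptors, was at 12.1 and 12.2 CPM in A and at 130 and 146 in AM, a log2 fold change of 3.50 ± 0.45 (SE, n = 2 and 2 libraries, adjusted p = 0.000753). Its replicates agreed closely in both regions, and it kept its call with any 1 of these libraries left out. Dkk1 also exceeded its level in P (13.5 and 28.5 CPM) with a log2 fold change of 2.72 (adjusted p = 0.0283). Cer1, which binds Nodal, BMP and Wnt ligands, was more abundant, at 104 and 50.1 CPM in A and 953 and 507 in AM, but did not pass (log2 fold change 3.24 ± 1.08 SE, n = 2 and 2 libraries, adjusted p = 0.235). Hesx1, a homeobox gene of anterior endoderm and forebrain, was at 36.9 and 5.55 CPM in A and at 55.2 and 21.6 in AM, and the regions overlapped. Of the 7 genes of the anterior visceral endoderm list, 1 rose, against 1.25% of all genes tested, with a list median of 1.59.

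Among Wnt pathway genes, 1 of 22 rose, Dkk1, and 2 fell, against 1.25% and 0.449% of all genes tested. Wnt8a, a ligand of the streak and posterior epiblast, was at 6.43 and 14.5 CPM in A and at 0.549 and 1.03 in AM, a log2 fold change of -3.70 (adjusted p = 0.0262). It was higher again in P, at 36.8 and 19.4 CPM, and AM minus P was -5.13 (adjusted p = 0.0283). Sp8, a zinc finger factor, was at 84.3 and 48.5 CPM in A and at 18.2 and 9.23 in AM (adjusted p = 0.0321). The Wnt8a and Sp8 calls were lost without A replicate 1, AM replicate 1 or AM replicate 2, and that of Wnt8a also without A replicate 2. Scaling to total counts in edgeR also ended the Sp8 call (adjusted p = 0.112). The ligands Wnt3, Wnt5a and Wnt5b had log2 fold changes of -0.20, 0.95 and -0.02 and did not pass.

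In the BMP pathway 1 gene rose, against 1.25% of all genes tested. Bmp2, a BMP ligand, was at 2.53 and 5.81 CPM in A and at 17.4 and 20.2 in AM, and was that 1 gene of 19 (log2 fold change 2.19, adjusted p = 0.0492). The call was lost on leaving out any 1 of the 4 libraries, and in edgeR with DESeq2 size factors (adjusted p = 0.0582) or total counts (adjusted p = 0.0597). Bmp4 was at 9.12 and 8.54 CPM in A and at 10.2 and 25.8 in AM, and Bmp7 at 9.32 and 12.9 against 23.8 and 34.2. In edgeR none of the 15 Nodal, 17 FGF, 12 hedgehog, 12 retinoic acid and 12 Notch pathway genes was called. At an unadjusted p under 0.05, 1 Nodal, 2 FGF, 3 hedgehog and 2 retinoic acid genes were higher, 1 retinoic acid gene was lower, and no Notch gene passed. DESeq2 called 1 gene higher in each of the FGF, hedgehog and retinoic acid lists and none in the Nodal and Notch lists. Lefty2, a Nodal antagonist, was at 9.62 and 4.10 CPM in A and at 17.8 and 82.5 in AM. Ihh, a hedgehog ligand of visceral endoderm, was at 0.203 and 0.427 CPM in A and at 1.58 and 6.27 in AM (adjusted p = 0.0615).

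Visceral endoderm genes were higher in AM as well, with wide differences between libraries. Of 21 tested, 5 rose, against 1.25% of all genes tested, and the median log2 fold change was 3.83. That median was 2.54 without AM replicate 2 and 8.0 without A replicate 2. Dab2, an endocytic adaptor, was at 21.0 and 94.0 CPM in A and at 410 and 1035 in AM (log2 fold change 3.65, adjusted p = 0.0306). Soat2, which esterifies cholesterol, was at 0.760 and 6.92 CPM in A and at 47.4 and 102 in AM (adjusted p = 0.0409). Cited1, a transcriptional co-activator, was at 4.91 and 33.5 CPM in A and at 89.3 and 266 in AM (adjusted p = 0.0456). For all 3 replicate 2 was the higher library in both regions. The Cited1 call was lost in edgeR with DESeq2 size factors (adjusted p = 0.0554).

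Among the called genes with an average log2 CPM of at least 3, the largest rise belonged to a fibrinogen chain. Fgg, at chr3:83007724-83015056, had 0 and 0.427 CPM in A and 10.7 and 25.8 in AM, a log2 fold change of 6.64 ± 0.81 (SE, n = 2 and 2 libraries, adjusted p = 0.000492). Fgb, whose promoter is printed above, had 0 and 1.97 CPM in A and 18.4 and 48.8 in AM, with a log2 fold change of 5.26 (adjusted p = 0.0277). Serpinc1, or antithrombin, which inhibits clotting proteases, had 0.253 and 0.769 CPM in A and 8.03 and 12.5 in AM (log2 fold change 4.39, adjusted p = 0.00673). Fgg kept its call with any 1 library left out, while those of Fgb and Serpinc1 were lost without A replicate 1 and that of Fgb also without AM replicate 2. A list of plasma proteins and clotting factors drawn up after values were seen had 12 of 19 tested genes higher, with a median log2 fold change of 4.39. It had 1 call without A replicate 1, and its median was 7.10 without A replicate 2.

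Several abundant products of the visceral endoderm did not pass in edgeR. Apoa1, an apolipoprotein, was at 1.17 and 197 CPM in A and at 364.5 and 2958 in AM (log2 fold change 4.07 ± 1.99 SE, n = 2 and 2 libraries, adjusted p = 0.553). Ttr, a thyroxine carrier, was at 0.405 and 111 CPM in A and at 282 and 1307 in AM. Afp, a fetal albumin relative, was at 0.354 and 23.7 CPM in A and at 68.3 and 451 in AM. These genes were near 0 in A replicate 1 and intermediate in A replicate 2, and replicate 2 was higher in AM and P too. The 21 genes together summed to 341.9 and 1360 CPM in A, 3712 and 14900 in AM, 1648 and 14110 in P, and 24950 and 34200 in ExE. Without A replicate 2, which held most of the A signal, 12 of the 21 genes were called. Without A replicate 1 or without AM replicate 2, 1 was called. With no library left out, DESeq2 called 15 of the 21 higher, Afp among them but not Apoa1 or Ttr.

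**Figure D3:**
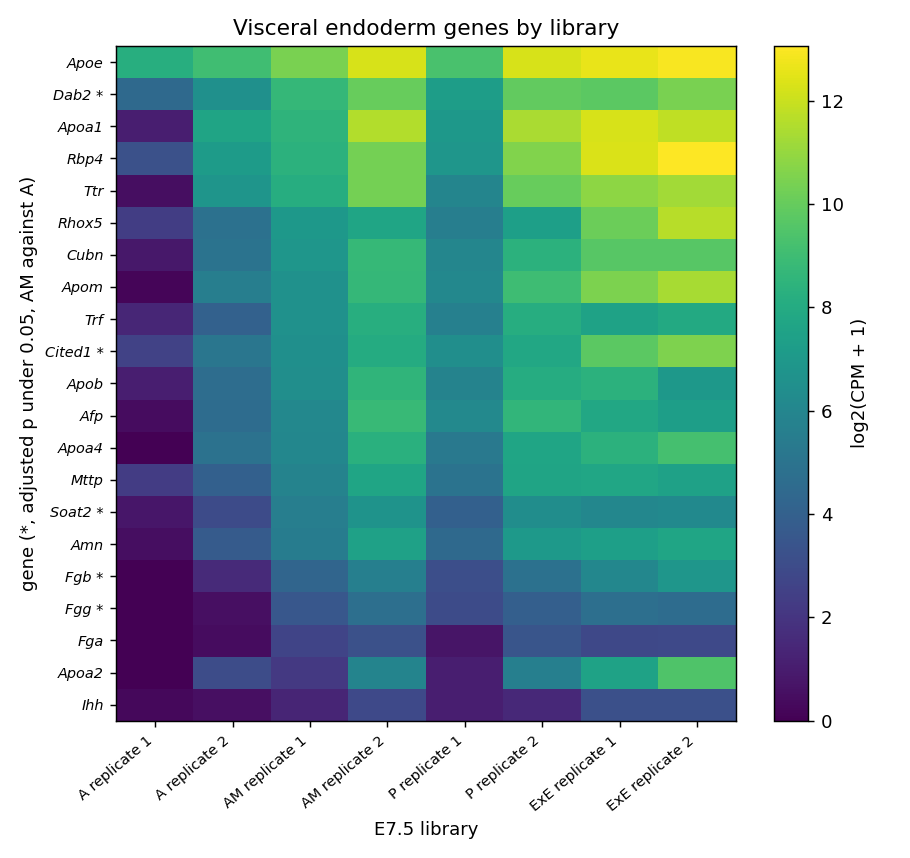
Heat map of log2(CPM + 1) for the 21 visceral endoderm genes (rows) in the 8 libraries of E7.5 (columns); an asterisk marks the 5 genes that rose in AM against A. A replicate 1 is the darkest column, ExE the brightest, and for most genes replicate 2 is brighter than replicate 1 in A, AM and P.

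Transcription factors of gut tube and liver had 3 of 13 genes called higher, the 3 Foxa genes, against 1.25% of all genes tested. The list's median log2 fold change was 2.27, or 1.45 without AM replicate 2. Hnf4a, the nuclear receptor of liver and visceral endoderm, was at 0 and 6.58 CPM in A and at 12.8 and 42.8 in AM (adjusted p = 0.392). No call of the list held without A replicate 1 or without AM replicate 1.

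Several of the largest rises encode proteins of the cell surface and the apical membrane. Slco4c1, an organic anion transporter, was at 0.253 and 0.598 CPM in A and at 24.8 and 24.0 in AM, a log2 fold change of 5.89 ± 0.64 (SE, n = 2 and 2 libraries, adjusted p = 0.000346). Dpp4, a membrane dipeptidase of absorptive epithelia, was at 0.101 and 7.69 CPM in A and at 136 and 125 in AM (log2 fold change 5.13, adjusted p = 0.0415). Slc7a9, a subunit of the cystine transporter of kidney and gut, was at 0.101 and 2.48 CPM in A and at 18.3 and 48.4 in AM (adjusted p = 0.0274). Cd55, which protects cells from complement, was at 0.810 and 1.54 CPM in A and at 56.8 and 24.7 in AM (log2 fold change 5.15, adjusted p = 0.000753). Slco4c1 and Cd55 kept their calls with any 1 library left out, while that of Dpp4 was lost without AM replicate 1 or AM replicate 2 and that of Slc7a9 without A replicate 1 or AM replicate 2. Of a list of brush border and apical membrane genes, again drawn up after values were seen, 9 of 21 tested were higher with a median of 3.25, falling to 2 calls without A replicate 1 or without AM replicate 2 and to 5 without AM replicate 1.

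Some enzymes were also among the largest rises. Akr1c13 and Akr1c19, aldo-keto reductases encoded in a cluster on chromosome 13, had log2 fold changes of 6.20 (adjusted p = 0.0106) and 5.48 (adjusted p = 0.023). Akr1c13 was at 0.152 and 0.512 CPM in A and at 33.3 and 13.2 in AM, and Akr1c19 at 0.203 and 1.28 against 46.5 and 15.8. The genes of this cluster are similar in sequence, so how the authors' counting split their reads is uncertain. Hkdc1, a hexokinase family member, was at 0 and 0.427 CPM in A and at 7.34 and 12.4 in AM (log2 fold change 5.73, adjusted p = 0.00555). Pga5, a pepsinogen, was at 0 and 1.20 CPM in A and at 19.3 and 27 in AM (log2 fold change 5.46, adjusted p = 0.0193), against 0.864 and 3.54 in P. Srgn, the core protein of the proteoglycan serglycin, was at 0.203 and 0.512 CPM in A and at 9.61 and 7.30 in AM (adjusted p = 0.00215). These 5 calls were lost without A replicate 1, those of Akr1c19 and Pga5 also without AM replicate 1, and that of Pga5 also without AM replicate 2. Slc2a3, a glucose transporter, was the 1 gene of 16 in the glycolysis list that rose, from 525 and 402 CPM in A to 2163 and 2962 in AM (log2 fold change 2.47, adjusted p = 0.0106), and its call was lost without A replicate 1, A replicate 2 or AM replicate 2. The transporter Slc2a1 was at 1421 and 1004 CPM in A and at 1075 and 1308 in AM. The 1 rise in the glycolysis list stands against 1.25% of all genes tested. Of its 16 genes 13 had a negative log2 fold change, and the list median was -0.35.

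Some of the rises belonged to genes with their highest E7.5 levels in ExE. Mageb16, an X-linked member of the MAGE family, was at 0.506 and 0.683 CPM in A, 18.7 and 18.7 in AM, 10.5 and 16 in P, and 96.2 and 203 in ExE. Its log2 fold change between AM and A was 4.98 ± 0.48 (SE, n = 2 and 2 libraries, adjusted p = 0.000126), and the call held with any 1 library left out. Triml2 was at 0.152 and 0.940 CPM in A, 11.9 and 11 in AM, and 27.5 and 50.1 in ExE (adjusted p = 0.00808). Trap1a, an X-linked tumor rejection antigen that stood in the epiblast list, was at 5.47 and 11.5 CPM in A, 60.6 and 43.5 in AM, and 200.1 and 253 in ExE (log2 fold change 2.62, adjusted p = 0.00155). In the extra-embryonic ectoderm list 2 of 11 genes rose, against 1.25% of all genes tested. Rhox6, a homeobox gene, rose from 0 and 0.512 CPM to 4.94 and 3.93 (adjusted p = 0.0118). Tex19.1, a germline and placental gene, rose from 0.962 and 1.62 CPM to 7.27 and 12.4 (adjusted p = 0.00602). The Triml2, Rhox6 and Tex19.1 calls were lost without A replicate 1.

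Keratins of simple epithelia rose, while the adhesion genes Cdh1 and Epcam did not pass. Krt8 was at 172 and 226 CPM in A and at 1663 and 1352 in AM, a log2 fold change of 2.92 ± 0.51 (SE, n = 2 and 2 libraries, adjusted p = 0.00714). Its filament partner Krt18 was at 156 and 190.0 CPM in A and at 1324 and 1135 in AM (log2 fold change 2.83, adjusted p = 0.00714). Dsp, which anchors keratin filaments at desmosomes, was at 13.9 and 15.5 CPM in A and at 80.6 and 42.5 in AM (adjusted p = 0.0105). With Krt19 these made 4 rises among 18 epithelial genes, against 1.25% of all genes tested. The list's median log2 fold change was 0.89, and 0.56 without A replicate 1. Cdh1, or E-cadherin, was at 87.8 and 139 CPM in A and at 129 and 109 in AM, and Epcam was at 310 and 315 against 285 and 229. Their log2 fold changes were 0.07 ± 0.30 and -0.28 ± 0.30 (SE, n = 2 and 2 libraries), and neither passed. No epithelial call held without A replicate 1, and 2 held without AM replicate 1.

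In the basement membrane list 2 of 18 genes rose, against 1.25% of all genes tested, with a median log2 fold change of 0.98. Nid1, or nidogen, which links laminin to collagen IV, was at 1.62 and 2.99 CPM in A and at 15.3 and 14.3 in AM (log2 fold change 2.70, adjusted p = 0.00864). Col4a1, a collagen IV chain, was at 20.5 and 29.3 CPM in A and at 62.0 and 108 in AM (log2 fold change 1.78, adjusted p = 0.0148). The laminin chain gene Lamb1 was at 29.1 and 31.7 CPM in A and at 66.1 and 62.5 in AM (adjusted p = 0.0707). Without A replicate 1 neither call held, and without AM replicate 2 that of Col4a1 was lost. Without A replicate 2 the list had 4 calls. With no library left out, DESeq2 called 6 of the 18 genes higher, Lamb1 among them.

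**Figure D4:**
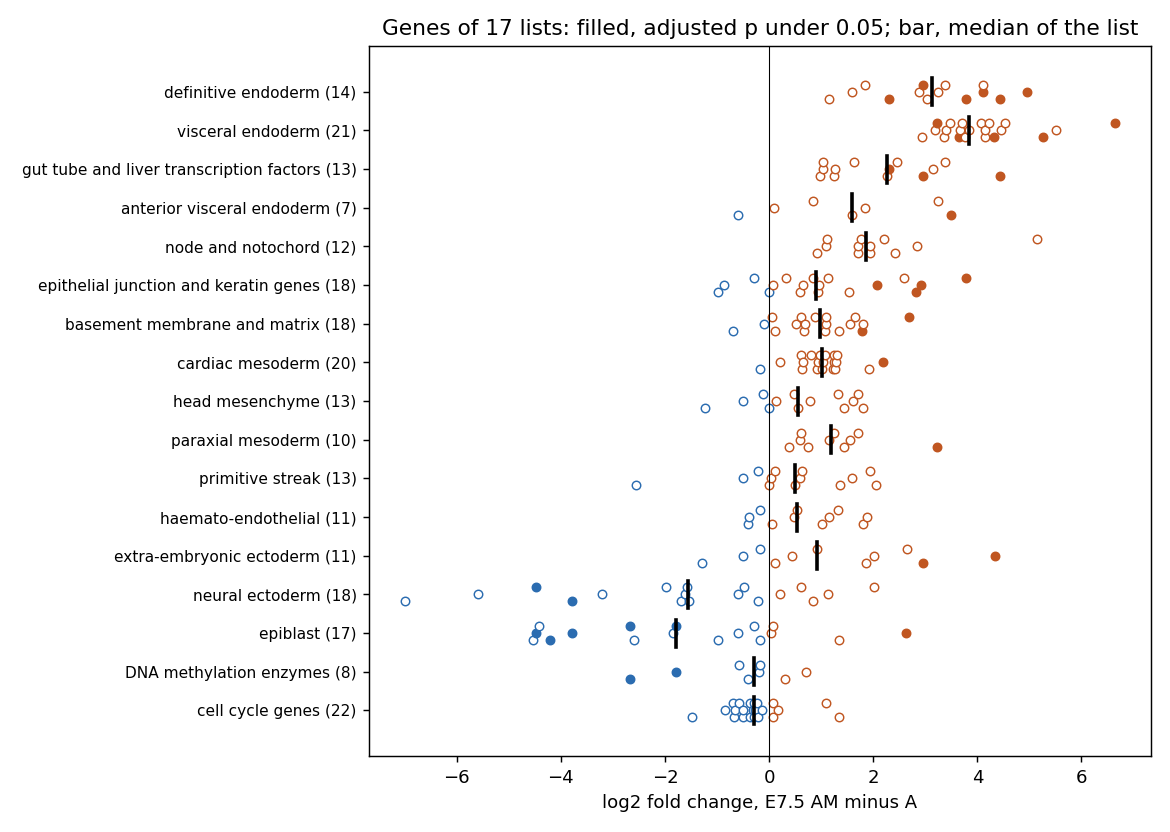
Log2 fold change (E7.5 AM minus A) of each tested gene in 17 gene lists, with the number of genes in parentheses; filled points passed an adjusted p of 0.05, open points did not, and the black bar is the median of the list. All points of the definitive and visceral endoderm lists lie to the right of 0, and the medians of the epiblast and neural ectoderm lists lie to the left, at -1.78 and -1.56.

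Epiblast genes were lower in AM. Of 17 tested, 5 fell, against 0.449% of all genes tested, 1 rose, and the median log2 fold change was -1.78, or -1.16 without A replicate 2. Utf1, a chromatin protein of pluripotent cells, was at 53.7 and 125 CPM in A and at 2.88 and 6.82 in AM, a log2 fold change of -4.20 ± 0.71 (SE, n = 2 and 2 libraries, adjusted p = 0.00732). Pou3f1, a POU factor of late epiblast and early neural cells, was at 11.2 and 7.52 CPM in A and at 0.0686 and 0.758 in AM (log2 fold change -4.47, adjusted p = 0.00909). Sox2, which partners POU factors in epiblast and neural progenitors, was at 12.2 and 7.94 CPM in A and at 0.755 and 0.689 in AM (log2 fold change -3.78, adjusted p = 0.00945). In each of the 3 both AM libraries lay below both A libraries.

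Both de novo DNA methyltransferases fell. Dnmt3b was at 1248 and 2125 CPM in A and at 164 and 369 in AM, a log2 fold change of -2.66 ± 0.47 (SE, n = 2 and 2 libraries, adjusted p = 0.00697), and P lay between at 499 and 1035. Dnmt3a was at 167 and 218 CPM in A and at 56.3 and 55.6 in AM (log2 fold change -1.78, adjusted p = 0.00864). Dnmt1, the maintenance enzyme, was at 71.0 and 110 CPM in A and at 64.0 and 96.7 in AM, and its partner Uhrf1 at 137 and 242 against 124 and 208, with log2 fold changes of -0.17 and -0.19 that did not pass. Of the 5 falls in the epiblast list, none held without AM replicate 1, and the Dnmt3a call was also lost without AM replicate 2.

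Pou5f1, the central pluripotency factor OCT4, was at 171 and 428 CPM in A and at 21.5 and 77.9 in AM and did not pass in edgeR (log2 fold change -2.59 ± 0.81 SE, n = 2 and 2 libraries, adjusted p = 0.169). DESeq2 called Pou5f1 lower. Of the 17 epiblast genes DESeq2 called 9 lower and 1 higher. In P, Pou5f1 was at 171 and 471 CPM. Nanog was at 20.3 and 16.2 CPM in A and at 5.90 and 12.7 in AM, without overlap, and did not pass (adjusted p = 0.529). Fgf5, which marks primed epiblast, overlapped between the regions at 15.8 and 30.8 CPM against 17.7 and 23.4. A separate list of naive pluripotency genes did not fall as a whole. Of its 8 genes tested 1 fell, against 0.449% of all genes tested, and none rose. Yet 5 of the 8 had a positive log2 fold change, and the median was 0.47. At an unadjusted p under 0.05 in edgeR, 3 were higher and 1 lower. Nr0b1, an X-linked orphan nuclear receptor of pluripotent cells, had 5.11 and 4.70 CPM in A and no count in either AM library, at least 48.1-fold lower with 3 counts over the AM libraries as the floor (adjusted p = 0.000452). It kept its call with any 1 library left out.

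Neural ectoderm genes divided. Of 18 tested, 2 fell, Sox2 and Pou3f1, against 0.449% of all genes tested. The median log2 fold change was -1.56, also with Sox3 at its bound. Sox3, a partner of Sox2 in neural progenitors, was low in A at 1.52 and 1.20 CPM and had no count in AM, at least 13.6-fold lower by the same floor (adjusted p = 0.0631). Otx2, which specifies forebrain and midbrain, was at 139 and 92.2 CPM in A and at 96.1 and 57.5 in AM, a log2 fold change of -0.59 that did not pass (adjusted p = 0.896). Against P, where it was at 4.75 and 3.54 CPM, AM was higher in Otx2 by 4.20 on the log2 scale (adjusted p = 0.0326). Neither neural call held without A replicate 1 or without AM replicate 1, and that of Sox2 was also lost without AM replicate 2. With no library left out, DESeq2 called 5 of the 18 genes lower, Sox3 among them.

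Genes better known from young neurons were among the falls. Syt11, a synaptotagmin of membrane traffic, was at 71.3 and 63.7 CPM in A and at 5.21 and 4.96 in AM, a log2 fold change of -3.73 ± 0.44 (SE, n = 2 and 2 libraries, adjusted p = 0.000491). Gng3, a G protein gamma subunit of the brain, was at 51.2 and 53.7 CPM in A and at 2.81 and 5.51 in AM (log2 fold change -3.65, adjusted p = 0.000631). Crmp1, a collapsin response mediator of axon growth, was at 68.7 and 86.7 CPM in A and at 8.64 and 10.9 in AM (log2 fold change -2.99, adjusted p = 0.00208). Kif1a, a kinesin motor of axonal transport, was at 20.8 and 20.8 CPM in A and at 2.06 and 2.20 in AM (adjusted p = 0.0129). For Syt11, Crmp1 and Kif1a the replicates lay close together in both regions, while the AM libraries of Gng3 were further apart. The calls of Syt11, Gng3 and Crmp1 held with any 1 library left out, while that of Kif1a was lost without A replicate 1, AM replicate 1 or AM replicate 2.

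Gng3 and Crmp1 were also lower in AM than in P, by log2 fold changes of -2.39 (adjusted p = 0.0439) and -2.63 (adjusted p = 0.0283), with P at 18.7 and 25.2 CPM for Gng3 and at 68.9 and 52.2 for Crmp1. The counts and median of the following list partly reflect how its members were chosen and are no independent support. A list of 30 young neuron genes drawn up after values were seen had 16 falls and a median log2 fold change of -2.91; without each of A replicate 1, A replicate 2, AM replicate 1 and AM replicate 2 in turn it had 3, 9, 3 and 4.

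Other large falls were spread over signalling and cytoskeletal genes. Cxcl12, a chemokine that guides migrating cells, was at 64.2 and 42.6 CPM in A and at 1.72 and 3.86 in AM (log2 fold change -4.26, adjusted p = 0.00998). It was the 1 gene of 22 in the guidance list that fell, against 0.449% of all genes tested. No gene of the list rose in edgeR, but 16 of the 22 had a positive log2 fold change and the median was 0.60. DESeq2 called 3 of the list higher and 1 lower. Rapgef5, a GTPase exchange factor, was at 44.9 and 24.8 CPM in A and at 1.92 and 2.48 in AM (log2 fold change -3.98, adjusted p = 0.00208). Dtx1, a ubiquitin ligase linked to Notch, was at 25.9 and 26.7 CPM in A and at 1.78 and 2.96 in AM (adjusted p = 0.0106). Mtap7d3, which binds microtubules, was at 61.5 and 44.2 CPM in A and at 4.94 and 4.55 in AM (adjusted p = 0.00268). Ndrg2 was at 83.4 and 49.6 CPM in A and at 6.38 and 8.34 in AM (adjusted p = 0.000779). The gene 2900011O08Rik, which RefSeq lists under another symbol, was at 70.1 and 61.9 CPM in A and at 2.06 and 3.10 in AM (log2 fold change -4.67, adjusted p = 0.0106). Fabp3, which carries fatty acids, fell from 18.1 and 10.5 CPM to 2.13 and 2.62 (adjusted p = 0.0167), although ExE had 198 and 787. The Rapgef5, Mtap7d3 and Ndrg2 calls held with any 1 library left out, and the other 4 were lost without A replicate 1, AM replicate 1 or AM replicate 2.

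**Figure D5:**
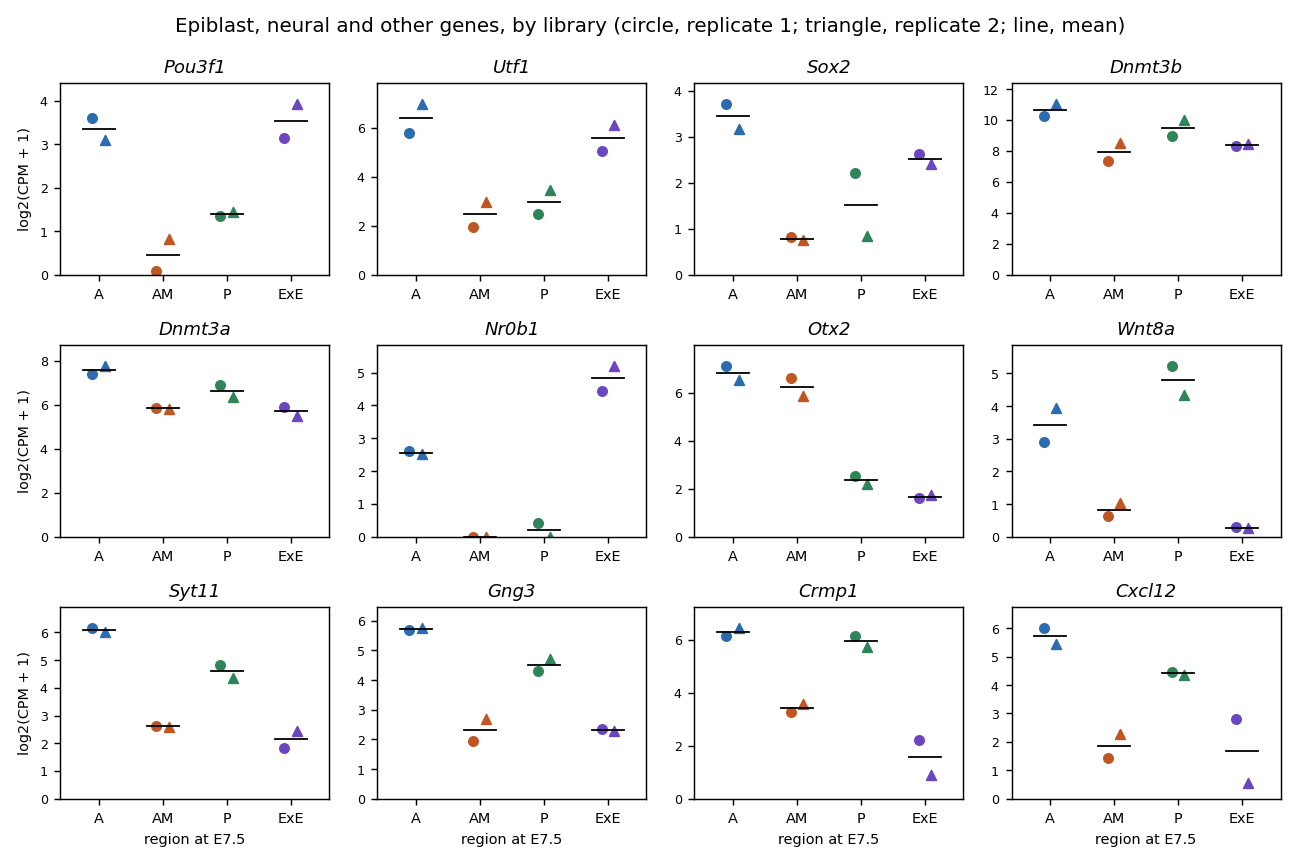
Level of 12 genes, as log2(CPM + 1), in the 2 libraries of each E7.5 region; circles are replicate 1, triangles replicate 2 and lines the mean. Otx2 overlaps between A and AM and lies far above P, while the other 11 genes lie lower in both AM libraries than in both A libraries.

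In 2 of the mesoderm lists 1 gene rose, against 1.25% of all genes tested. In the cardiac list this was Bmp2, 1 of 20, and the median log2 fold change was 1.02, or -0.04 without AM replicate 2. As given above, the Bmp2 call was lost in edgeR with DESeq2 size factors or total counts, and on leaving out any 1 library. In the paraxial mesoderm list it was Cited1, 1 of 10, all 10 had a positive log2 fold change, and the median was 1.19. Mesp1, the first factor of cardiac precursors, was at 7.24 and 12.6 CPM in A and at 8.30 and 22.2 in AM. In edgeR no gene was called among 13 of head mesenchyme, 13 of the primitive streak, 12 of lateral plate and extra-embryonic mesoderm, and 11 of the haemato-endothelial list. At an unadjusted p under 0.05, 2, 1, 3 and 2 of these were higher and 1 streak gene was lower, and DESeq2 called 1 gene higher in each of the last pair of lists and none in the first pair. Alx1, a homeobox gene of head mesenchyme, was expressed in both regions, at 69.0 and 25.9 CPM in A and at 96.9 and 43.3 in AM, and was nearly absent from P at 0.605 and 0.394. The log2 fold change of Alx1 was 0.56 ± 0.66 (SE, n = 2 and 2 libraries, adjusted p = 0.919) between AM and A and 7.07 between AM and P (adjusted p = 0.00543). Gata1, a blood factor, was at 3.39 and 1.88 CPM in A and at 11.6 and 8.13 in AM (adjusted p = 0.0558), and exceeded P by 3.18 on the log2 scale (adjusted p = 0.0283). Mixl1, a streak gene, was at 0.658 and 1.20 CPM in A and at 1.24 and 6.27 in AM against 163 and 124 in P.

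Node and notochord genes such as Noto and Shh were uneven between the AM libraries. None of 12 was called in edgeR or in DESeq2, 5 were higher at an unadjusted p under 0.05, and the median log2 fold change was 1.86, or 0.45 without AM replicate 1 and 3.53 without A replicate 2. Noto, a homeobox gene of the node, was at 2.38 and 21.4 CPM in A and at 110 and 15.3 in AM. Shh, the ligand made by node and notochord, was at 0.0506 and 0.256 CPM in A and at 9.74 and 0.896 in AM. T, or Brachyury, was at 3.90 and 45.1 CPM in A and at 141 and 46 in AM. Replicate 1 of AM was the high library in all 3, the same library in which Foxa1, Foxa2 and Krt19 were higher.

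Genes of general cell functions were read against the same 1.25% higher and 0.449% lower. None of 77 cytosolic ribosomal proteins and none of 67 respiratory chain subunits was called by edgeR or DESeq2 or reached an unadjusted p under 0.05, with median log2 fold changes of 0.01 and -0.08. Among 22 cell cycle genes edgeR called none, with 1 higher and 3 lower at an unadjusted p under 0.05, and DESeq2 called 1 lower. Mki67, a marker of dividing cells, was at 192 and 134 CPM in A and at 202 and 140.3 in AM. Among 12 targets of p53, Perp, a desmosomal protein, was the 1 that rose, from 7.39 and 6.15 CPM to 46.7 and 24.8 (log2 fold change 2.40, adjusted p = 0.0319). Among 20 imprinted genes, Sgce, a paternally expressed sarcoglycan, was the 1 that rose, from 12.5 and 13.7 CPM to 39.3 and 39.3 (log2 fold change 1.59, adjusted p = 0.0329). Both of these last calls were lost without A replicate 1, A replicate 2 or AM replicate 1, and that of Sgce also without AM replicate 2. Scaling to total counts in edgeR ended them too, with an adjusted p of 0.0559 for Perp and 0.0956 for Sgce.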

How the data were processed

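Embryo RNA libraries were made from extracted RNA with the Nextera XT kit, per the labels' protocols, a kit that does not mark strand. Build mm10 and the tools BWA, TopHat2 2.0.9 and CASAVA 1.8 are listed in the submitters' processing notes, and the tool that made the gene counts is not given in the sources used here. The authors deposited raw read counts per gene, and 18 columns were matched to samples by name; 6 further columns matched no sample and were not used. Reads of a gene and its antisense partner cannot be told apart.

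The 18 embryo libraries (9 groups) were fitted together with edgeR 4.0.16 (R 4.3.3): TMM scaling, filterByExpr (minimum count 10, minimum total 15), robust quasi-likelihood fit and test of AM minus A, without a replicate block. Benjamini-Hochberg adjustment ran over all 14403 genes tested, with a threshold of 0.05. CPM is the count scaled per TMM-adjusted library size. Standard errors are the log2 fold change over the root of F. Fold bounds use a floor of 3 counts over a group, for counting error only. Total counts were 16297084 and 9366714 for A and 10637356 and 13609172 for AM, which sets the precision of low values. Scripts were tested on simulated data. Alternatives were DESeq2 1.42.0, its size factors, total counts, 2 other filters, the 4 libraries alone, replicate blocks and leaving out each library. Named genes are the 15 largest rises and 15 largest falls among called genes with average log2 CPM of at least 3 and no overlap, and from each list up to 6 called genes by p, 2 in the minority direction, and 3 not called, in list order. Markers of the check of cell types are named as well. The genes compared and the lists were chosen with earlier results of these data known, and 4 lists (plasma proteins, brush border, lysosome, young neuron) after the values here were seen. Gene positions and promoters are from RefSeq, GRCm38.p6; protein sequences were not used here. Some results are not reported here.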

Additional observations from a re-analysis of the deposited data

How the results depend on the processing

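Leaving out 1 library at a time gave 19 to 167 genes higher and 12 to 37 lower, against 165 and 59. Of the 165 rises the fewest were called again without A replicate 1, and of the 59 falls the fewest without AM replicate 1. A fit of the 4 libraries alone called 1 higher and 2 lower. DESeq2 called 394 and 182, including all of the 165 and 59, and no filter gave 471 and 161. Among the 30 genes with the largest changes, 15 to 30 kept their call when 1 library was left out and 2 in the fit of the 4 libraries alone. Among the distinct genes of the lists, leaving out the lists drawn up after values were seen, 34 were called: DESeq2 called 71 of these genes, no filter 99, the 4 libraries alone 1, and leaving out 1 library 10 to 42. Total counts gave 167 and 41, moving the share of higher calls from 73.7% to 80.3%; no scaling moved the median of all genes by over 0.1. DESeq2 size factors in edgeR ended the calls of Tmprss2, Cited1 and Bmp2, and total counts those of Foxa3, Sp8, Bmp2, Perp and Sgce.

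The replicate numbers could pair the libraries. In every E7.5 region replicate 1 carried Ddx3y and replicate 2 had it at 0 CPM. Replicate 1 minus replicate 2 correlated across genes at 0.483 between A and AM, 0.478 between A and P and 0.686 between AM and P. With ExE the correlations were 0.065 for A, 0.146 for AM and 0.283 for P. The labels do not state a pairing and there are 2 pairs. A replicate block by stage and number in the fit of 18 libraries called 327 higher and 108 lower, and 72 of the same list genes. It included all of the 165 and 59, added Sox17 (adjusted p = 0.03), Hhex (0.0407), Prdm1 (0.0417), Afp (0.046), Lamb1 (0.0443), Sox3 (0.0403) and Gata1 (0.0356), and took the visceral endoderm list from 5 calls to 15. With the replicate block in the 4 libraries alone, 966 were higher and 601 lower, and 123 of the same list genes were called. Only 139 of the 165 and 57 of the 59 were among them: the calls of Foxa1 (adjusted p = 0.436), Foxa2 (0.504), Krt19 (0.483), Tmprss2 (0.491), Cpn1 (0.0567), Cd55 (0.0582), Fgb (0.293), Soat2, Dpp4, Slc7a9, Akr1c19, Pga5, Trap1a, Cxcl12 and Rhox6 were not.

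None of the 55 called genes named in the text changed direction in any setting, and 14 kept their call whichever library was left out. The 55 leave out genes named after their values were seen. All 224 called genes had both AM libraries on one side of both A libraries. Leaving out 1 library could therefore hardly turn a direction, and the unchanged directions are no test of stability. Of the genes not called, leaving out 1 library moved the log2 fold change of Cdh1 between -0.27 and 0.40, Fgf5 between -0.63 and 0.35, Alx1 between -0.17 and 1.39, and Hesx1 between -0.0201 and 2.74. Depth left the changes of Nr0b1 and Sox3, at 0 counts in AM, as bounds only.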

Other observations

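Genes of the X chromosome made up 27 of the 165 rises, which is 5.27% of the 512 X-linked genes tested, against 1.25% of all genes tested. The next highest share was 2.07% on chromosome 3. The median log2 fold change of the X-linked genes was 0.07. Among 9 tested Xlr genes, a family of X-linked genes with near-identical copies, 6 rose in AM, with a family median of 3.20. Xlr4b, chosen after its values were seen, was at 1.57 and 1.11 CPM in A and at 13.4 and 11.9 in AM. How the authors' counting split reads between Xlr copies is uncertain.

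Of 247 tested solute carrier genes 13 rose (5.26%) and 2 fell (0.81%), against 1.25% and 0.449% of all genes tested. Their median log2 fold change was 0.36. Slc16a1, a lactate carrier also chosen after its values were seen, was at 172 and 212 CPM in A and at 1803 and 1525 in AM. In a list of 26 lysosome genes drawn up after values were seen, 6 rose and the median log2 fold change was 1.03; without A replicate 1 none of these calls held, and without A replicate 2 or AM replicate 2 the list had 1. Nkx1-2, a homeobox gene likewise chosen after its values were seen, had 325 counts in A and 2 in AM, a ratio of 150.0 with a 95% exact counting interval from 41.3 to 1250.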
